A study of Mus musculus with 8 samples.

Results

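The nuclear genes for the subunits of oxidative phosphorylation were followed in 8 RNA sequencing libraries of mouse embryonic stem cells. Members were chosen by name in the deposited count table, as the genes for subunits of NADH dehydrogenase (Nduf names), succinate dehydrogenase (Sdha to Sdhd), the cytochrome bc1 complex (Uqcr names), cytochrome c oxidase (Cox4 to Cox8 names), somatic cytochrome c (Cycs) and ATP synthase (Atp5 names). The name patterns took 106 rows, from which 14 rows named as pseudogenes were left out. Ndufa4l2 and Ndufs3, which match the patterns but are excluded by name in the rule, were left out too. Ndufs3 is thus missing from the rows of complex I. The remaining 90 rows of 57010 carry 89 names, since Atp5o has 2 rows. They comprise 39 rows for complex I, 4 for complex II, 8 for complex III, 1 for cytochrome c, 20 for complex IV and 18 for ATP synthase, with Ndufa4 placed in complex IV, where its protein is now assigned. The choice was by name, without a threshold on a measured value, but it was made with earlier results of these data known.

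The libraries fall into 4 groups of 2. HSVTK cells given ganciclovir make up the group labelled HSVTK GANC and those given the solvent the group labelled HSVTK DMSO, and the Control GANC and Control DMSO groups were treated in the same way. HSVTK stands for a reporter line, 2C::HSVTK, in which cells that enter a state like that of the 2-cell embryo make the thymidine kinase of herpes simplex virus, and ganciclovir is a nucleoside that this kinase turns into a toxic product. The study asked what becomes of embryonic stem cells when the 2-cell-like cells are removed. The labels give no dose, duration or passage number, are silent on the genotype of the Control cells, and name no separate cultures, so the tests measure the spread between 2 libraries, which may be technical. All 4 groups carry the same cell type label, and the sources used here do not say whether each line is 1 clone.

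Oxidative phosphorylation is the last stage of respiration. Complexes I and II pass electrons from NADH and succinate to ubiquinone, complex III passes them on to cytochrome c, and complex IV passes them to oxygen. Complexes I, III and IV pump protons across the inner mitochondrial membrane, and ATP synthase uses the proton gradient to make ATP. Most subunits are encoded in the nucleus and a few in mitochondrial DNA, and some subunits of complex IV exist as forms made in particular tissues. Naive mouse embryonic stem cells use both glycolysis and respiration.

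Library depth ran between 29704460 and 34184475 counts, with 23777 to 25656 genes having at least 1 count. Expression values are given as CPM, counts divided by the scaled size of their library, and levels of different genes are compared only as FPKM, which also divides by gene length. A gene was called changed where its adjusted p from the quasi-likelihood test of edgeR, over all 17976 genes that passed the count filter, was under 0.05. All 12 embryonic stem cell markers examined were expressed, with sums of 6350 and 6470 CPM in HSVTK GANC, 7150 and 7240 CPM in HSVTK DMSO, 6160 and 6480 CPM in Control GANC and 5980 and 5890 CPM in Control DMSO. HSVTK DMSO stood above the other groups in this sum. Much of that was Tdgf1, at 1290 and 1320 CPM in HSVTK DMSO, 558 and 563 CPM in Control DMSO and 778 and 849 CPM in HSVTK GANC. Lin28a went the other way, at 323 and 311 CPM in HSVTK DMSO and 425 and 412 CPM in Control DMSO. Of these markers 0 were called higher and 5 lower in HSVTK GANC than in HSVTK DMSO. In Control GANC 3 were higher and 0 lower than in Control DMSO. In HSVTK DMSO 8 were higher and 1 lower than in Control DMSO. Of all genes with a mean of at least 10 CPM, 39.0%, 13.7% and 46.8% were called in these comparisons. The part of the markers in the differences of the subunit genes was not tested. The 12 fibroblast and feeder markers summed to 22.5 and 23.8 CPM in HSVTK GANC, 23.5 and 26.4 CPM in HSVTK DMSO, 17.9 and 20.6 CPM in Control GANC and 12.4 and 14.4 CPM in Control DMSO. Only 6 of them passed the count filter. Thy1 alone held 15.1 and 15.7 CPM in HSVTK DMSO and 7.88 and 7.76 CPM in Control DMSO. The sparse Col1a2 and Fbln2 went the other way, lower in both HSVTK DMSO libraries than in both Control DMSO libraries. The sum is thus no measure of fibroblast content. Zscan4c, a gene of the 2-cell-like state, stood at 8.53 and 8.88 CPM in the libraries labelled HSVTK GANC, against 4.70 and 3.59 CPM in HSVTK DMSO, 5.0 and 4.15 CPM in Control GANC and 5.23 and 4.10 CPM in Control DMSO. A loss of 2-cell-like cells would by itself give a lower value, and why this gene stood higher was not tested. Every direction below rests on the labels as they stand. In these bulk libraries, fewer cells of a type and less RNA per cell cannot be told apart.

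Respiratory genes are known for promoters with sites for NRF1, for ETS factors such as GABPA, and for YY1. In the RefSeq promoter table (build GRCm38.p6, 250 bases before to 50 after each start), 69 of the 89 member names had a promoter, 74 promoters in all. All motifs were searched on both strands. The NRF1 motif, a palindrome that stands in capitals in the promoter of Atp5g2 below, was in 5 member promoters (6.8%), against 0.97% of all 32851 promoters. The ETS motif CCGGAAG was in 16 of them (21.6%), against 8.86% of all, and the YY1 motif AAGATGGCG in 7 (9.5%), against 1.4% of all. At least 1 of the 3 was in 33.8% of the member promoters and in 10.76% of all. The promoters were not matched on base content, and no test was run on these shares. The promoters of 4 members are shown because the first pair, which encode the same mature c subunit of ATP synthase, moved in opposite directions with ganciclovir in HSVTK cells, and because Sdhb and Cox6b2 moved in opposite directions too. They lie at chr11:96075582-96075881, minus strand, for Atp5g1, at chr15:102670998-102671297, minus strand, for Atp5g2, at chr4:140961021-140961320, plus strand, for Sdhb, and at chr7:4753045-4753344, minus strand, for Cox6b2. Each is written 5′ to 3′ in lower case, with any of the 3 motifs in capitals.
Atp5g1: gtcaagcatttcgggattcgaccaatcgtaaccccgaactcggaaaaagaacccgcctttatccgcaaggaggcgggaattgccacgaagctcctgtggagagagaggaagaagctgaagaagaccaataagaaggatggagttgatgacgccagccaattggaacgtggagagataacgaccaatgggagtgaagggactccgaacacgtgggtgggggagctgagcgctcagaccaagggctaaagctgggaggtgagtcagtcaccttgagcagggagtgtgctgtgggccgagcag
Atp5g2: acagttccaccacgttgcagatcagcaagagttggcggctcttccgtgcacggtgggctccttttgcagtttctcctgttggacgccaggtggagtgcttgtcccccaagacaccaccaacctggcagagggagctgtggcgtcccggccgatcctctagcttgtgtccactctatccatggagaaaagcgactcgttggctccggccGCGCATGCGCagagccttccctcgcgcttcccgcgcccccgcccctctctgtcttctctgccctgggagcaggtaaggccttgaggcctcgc
Sdhb: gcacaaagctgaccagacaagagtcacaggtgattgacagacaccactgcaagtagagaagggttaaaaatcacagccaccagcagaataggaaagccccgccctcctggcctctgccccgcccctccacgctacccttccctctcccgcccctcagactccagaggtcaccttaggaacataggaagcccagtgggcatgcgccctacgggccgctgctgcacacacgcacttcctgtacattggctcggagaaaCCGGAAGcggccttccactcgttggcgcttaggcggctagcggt
Cox6b2: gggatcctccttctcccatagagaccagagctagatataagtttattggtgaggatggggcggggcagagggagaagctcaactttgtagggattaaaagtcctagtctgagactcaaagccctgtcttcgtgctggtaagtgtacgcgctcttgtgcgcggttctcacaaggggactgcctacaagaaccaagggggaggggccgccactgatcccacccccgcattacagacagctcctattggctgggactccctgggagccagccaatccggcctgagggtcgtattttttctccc
Atp5g2 has the NRF1 motif and Sdhb the ETS motif in this window, while Atp5g1 and Cox6b2 have none of the 3. Among the other members called in that comparison and given a promoter, Ndufa11, which rose, has the NRF1 motif. Cox7a1, Cox7a2l, Ndufv3, Ndufc2, Ndufa6, Ndufa7, Ndufv2 and Ndufb4, which fell, have none of the 3. A link between motif and direction was not tested.

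Per length, the catalytic genes of ATP synthase stood highest. Atp5b, for the catalytic beta subunit, averaged 503 FPKM over the 8 libraries, and Atp5a1, for the alpha subunit, 469 FPKM. They were followed by the small complex IV subunits Cox6a1 with 402 FPKM, Cox8a with 388 FPKM and Cox7c with 320 FPKM, and by Uqcr10 of complex III with 279 FPKM. The median member level was 52.8 FPKM in complex I, 59.3 FPKM in complex II, 115 FPKM in complex III, 133 FPKM in complex IV and 81.4 FPKM in ATP synthase. Cycs averaged 61.0 FPKM.

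**Figure D1:**
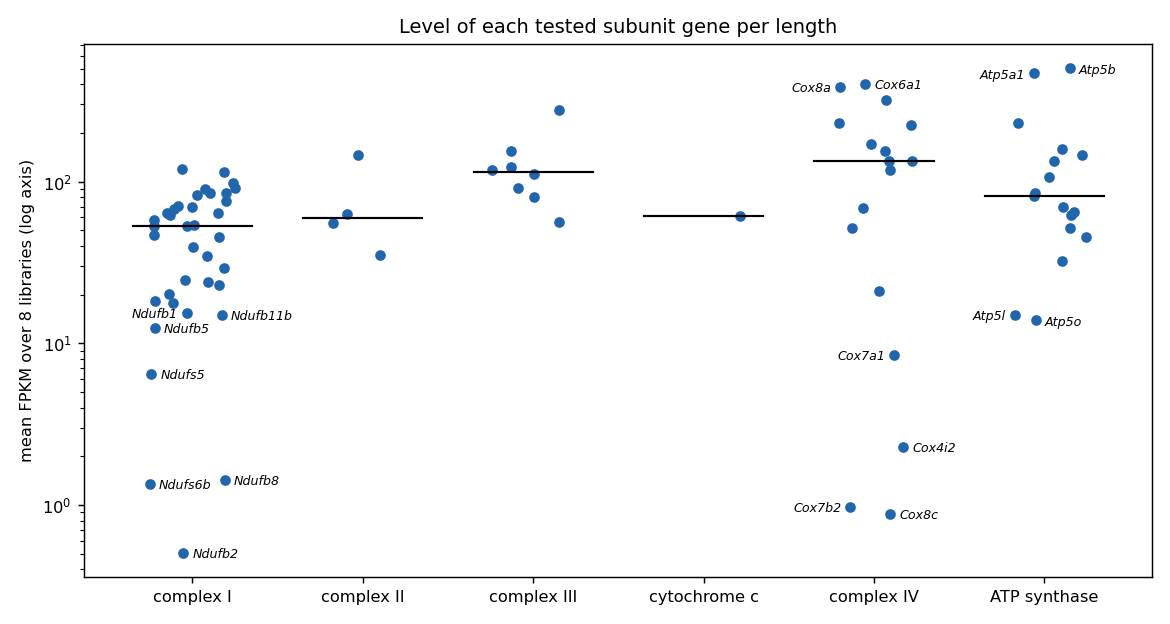
Mean FPKM over the 8 libraries (log axis) of each of the 84 tested members, by complex, with a line at the median of each complex. Most members lie within about an order of magnitude of each other, and those named at the bottom include Ndufb2 at 0.506 FPKM, Ndufb8 at 1.43 FPKM and the tissue forms Cox4i2 at 2.29 FPKM and Cox7a1 at 8.46 FPKM.

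Several members of low level have a counting limit. Ndufb2 averaged 0.506 FPKM and Ndufb8 1.43 FPKM, although both encode accessory subunits found in every complex I, and the files list exon lengths of 5628 and 3146 bases for them. Ndufs5 averaged 6.47 FPKM, while the row of its pseudogene Ndufs5-ps, which is not a member, held 172 FPKM and 1542 to 1913 counts. Such reads of near-identical copies may be split between rows, and the sources used here do not say how multiply mapping reads were counted. Atp5o, a peripheral stalk subunit, averaged 13.9 FPKM and shares 47.9% of its exon bases with other annotated genes in the GENCODE vM21 annotation, so its level is uncertain as well.

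The count filter kept 84 of the 90 members. Those left out were Ndufa11b with at most 1 count, Ndufb4c with at most 11, Cox6a2 with 0 to 10, Cox6c2 with at most 1, Cox8b with 2 counts in 1 HSVTK GANC library and 0 in the other 7, and the second row of Atp5o with 0 in all 8. Cox6a2 and Cox8b are the heart and muscle forms of their subunits. A library with 0 counts allows up to 3 counts, 0.0876 to 0.103 CPM here, for counting error only.

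Summed over a complex, the level hardly differed with ganciclovir. Complex I summed to 1880 ± 52.7 FPKM in HSVTK GANC and 1912 ± 44.3 FPKM in HSVTK DMSO (SD, n = 2 each), against 1761 ± 120 FPKM in Control GANC and 1780 ± 39.0 FPKM in Control DMSO. Complex III summed to 1090 ± 26.8 FPKM in HSVTK GANC, 1057 ± 24.3 FPKM in HSVTK DMSO, 957 ± 54.1 FPKM in Control GANC and 949.6 ± 19.8 FPKM in Control DMSO. Complex IV summed to 2581 ± 51.9, 2487 ± 66.7, 2308 ± 125 and 2341 ± 57.4 FPKM in the same order of groups. The means of both HSVTK groups were above those of both Control groups in these 3 sums. The single libraries did not overlap between the lines in complexes III and IV, but did in complex I, with 1842 FPKM in the lower HSVTK GANC library and 1846 FPKM in the higher Control GANC library. Over the 5 complexes, the ratio of GANC to DMSO lay between 0.983 and 1.038 in HSVTK cells and between 0.985 and 1.007 in Control cells, and the ratio of HSVTK to Control between 1.046 and 1.139. The members together took 1.46% and 1.51% of the counts in HSVTK GANC, 1.45% and 1.48% in HSVTK DMSO, 1.32% and 1.41% in Control GANC and 1.4% and 1.35% in Control DMSO. No test was run on these sums, in which a few abundant genes weigh most. FPKM and these shares also rest on unscaled library sizes. With unscaled sizes, the median log2 fold change of all genes shifted by 0.027 for HSVTK DMSO against Control DMSO. It shifted by 0.051 for HSVTK GANC against Control GANC and by 0.034 for HSVTK GANC against HSVTK DMSO.

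**Figure D2:**
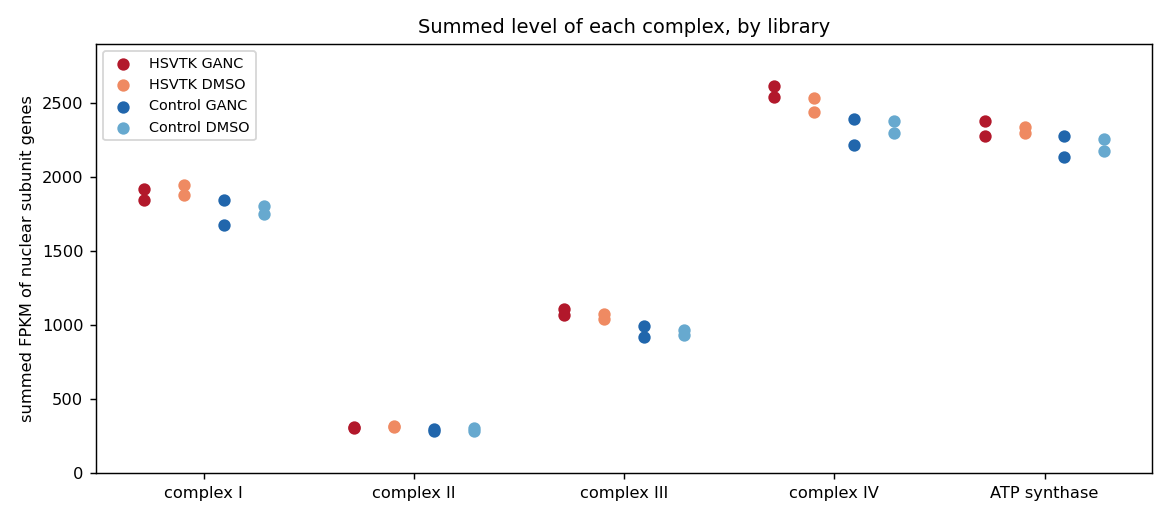
Summed FPKM of the nuclear subunit genes of each complex in each of the 8 libraries, coloured by group, with the y axis from 0. The pairs of points of one group lie close to those of the others, and the largest ratio of an HSVTK to a Control mean is that of complex III, 1.139, at 1071 and 1109 FPKM in HSVTK GANC, against 918 and 995 FPKM in Control GANC.

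The group means of most members lay close together. Of the 76 members with a mean of at least 10 CPM, 64 (84.2%) had group means within 1.25-fold of each other, against 49.7% of all 8587 genes above the same minimum, which were not matched to the members on level. No test was run on these shares. Within 1.5-fold lay 75 of the 76 (98.7%), against 81.9% of all. The exception was Cox6b2.

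The first comparison asks what ganciclovir changed in HSVTK cells. Most subunit genes did not pass the test, 12 passed with lower values and 3 with higher values in HSVTK GANC than in HSVTK DMSO, and the large changes were in tissue forms of complex IV. Called members were 15 of 84 (17.9%), while 28.5% of all genes tested were called. By direction, 13.3% of all genes tested were called higher and 15.2% lower. At a mean of at least 10 CPM, 17.1% of members and 39.0% of all genes were called. The median log2 fold change was -0.02 over members and 0.01 over all genes. The called changes of at least 1.5-fold were those of Cox4i2, Cox7a1 and Cox6b2, and the other 12 were at most 1.316-fold. In 17 members both HSVTK GANC libraries lay above both HSVTK DMSO libraries and in 29 below, against 32.4% and 31.9% of all genes tested. With unscaled library sizes 6 members were higher and 10 lower, and the median of all genes shifted by 0.034 on the log2 scale.

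**Figure D3:**
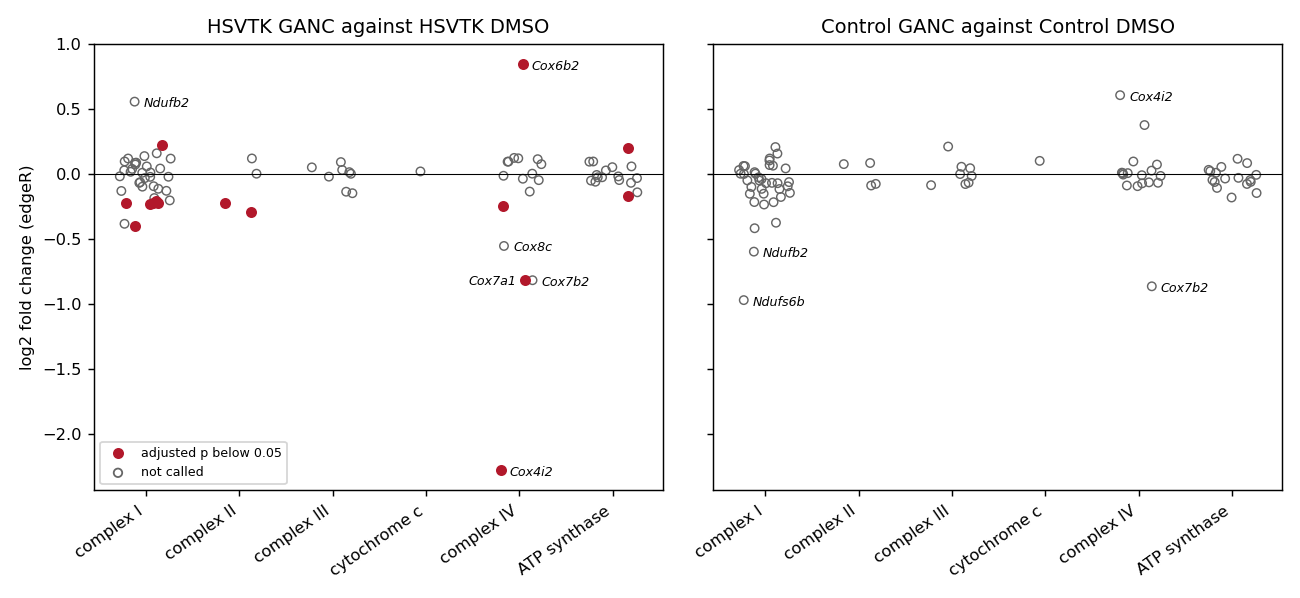
Fitted log2 fold change of each tested member for ganciclovir over DMSO, in HSVTK cells (left) and Control cells (right), by complex. Filled points have an adjusted p under 0.05: 15 in HSVTK cells, of which Cox4i2 at -2.27 lies lowest and Cox6b2 at 0.84 highest, and 0 in Control cells.

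In complex IV, Cox4i2, a form of subunit 4 described in lung and in cells short of oxygen, fell most. It stood at 1.05 and 0.598 CPM in HSVTK GANC, against 3.21 and 4.73 CPM in HSVTK DMSO, while Control GANC held 1.4 and 1.53 CPM and Control DMSO 0.893 and 1.03 CPM. The HSVTK DMSO libraries were the highest of the 8, and the HSVTK groups do not overlap. The log2 fold change was -2.27 ± 0.321 (SE; edgeR, adjusted p = 3.81e-06), and the gene rests on 20 to 162 counts per library. Cox4i1, the common form of subunit 4, stood at 364 and 376 CPM in HSVTK GANC and 332 and 348 CPM in HSVTK DMSO, with an adjusted p of 0.133. Per length, Cox4i2 made up 0.437% of the 2 forms together in HSVTK GANC and 2.23% in HSVTK DMSO, so the sum of both was set by Cox4i1, at 246 ± 5.46 FPKM in HSVTK GANC and 225 ± 8.80 FPKM in HSVTK DMSO (SD, n = 2 each).

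Cox7a1, the heart and skeletal muscle form of subunit 7a, moved in the same direction. It held 3.9 and 4.57 CPM in HSVTK GANC, against 7.57 and 7.30 CPM in HSVTK DMSO, and 3.93 and 3.32 CPM in Control GANC, against 3.17 and 2.39 CPM in Control DMSO. Again the HSVTK DMSO libraries stood above the other 6. The change was -0.81 ± 0.184 (adjusted p = 0.0013, edgeR), and the muscle form made up 5.46% of Cox7a1 and Cox7a2 together per length in HSVTK GANC and 9.15% in HSVTK DMSO. Cox7a2, the common form, held 128 and 131 CPM in HSVTK GANC and 126 and 135 CPM in HSVTK DMSO. The 12 cardiac and skeletal muscle markers, of which 6 passed the count filter and Actc1 was at 0 in all 8 libraries, summed to 10.9 and 11.8 CPM in HSVTK GANC, 16.3 and 14.4 CPM in HSVTK DMSO, 16.4 and 16.1 CPM in Control GANC and 13.3 and 14.3 CPM in Control DMSO. Their part in the change of Cox7a1 was not tested.

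Cox6b2, a form of subunit 6b known from testis, changed the other way. Its values were 28.7 and 32.6 CPM in HSVTK GANC, 19 and 15.2 CPM in HSVTK DMSO, 22.6 and 22.1 CPM in Control GANC and 22.8 and 22.2 CPM in Control DMSO. HSVTK GANC was the highest group, HSVTK DMSO the lowest, and the Control groups lay together between them. The log2 fold change was 0.84 ± 0.107 (edgeR, adjusted p = 7.38e-07). Cox6b1, the common form, held 156 and 174 CPM in HSVTK GANC and 152 and 157 CPM in HSVTK DMSO, and Cox6b2 made up 10.6% of both forms per length in HSVTK GANC, against 6.62% in HSVTK DMSO.

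**Figure D4:**
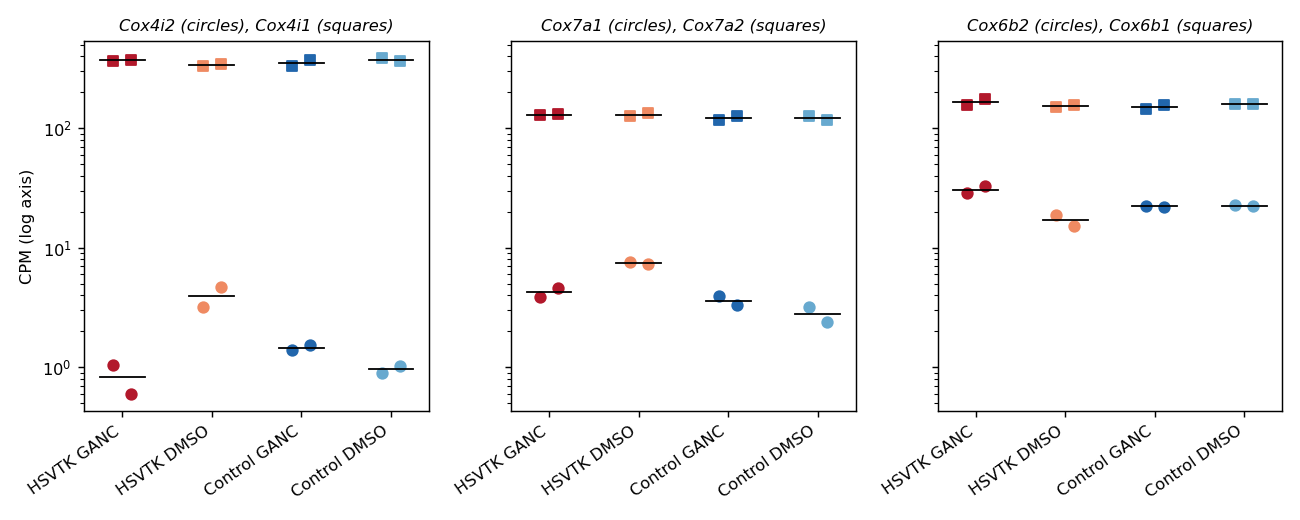
CPM (log axis) of 3 tissue forms of complex IV subunits (circles) and their common forms (squares) in each library, with a bar at the mean of each group of 2. The common forms stand between 117 and 386 CPM in all groups, while Cox4i2 and Cox7a1 are highest in HSVTK DMSO and Cox6b2 is highest in HSVTK GANC and lowest in HSVTK DMSO.

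Of the other complex IV genes, Cox7a2l, whose protein joins complexes III and IV into supercomplexes, fell slightly. Its values of 166 and 172 CPM in HSVTK GANC lay below the 200 CPM of both HSVTK DMSO libraries and beside the 158 and 169 CPM of Control GANC and the 164 and 161 CPM of Control DMSO. The change was -0.24 ± 0.0596 (adjusted p = 0.00269, edgeR). The remaining 13 tested genes of complex IV did not pass. Ndufa4 was among them, with a log2 fold change of 0.12 at 218 and 235 CPM in HSVTK GANC and 210 and 208 CPM in HSVTK DMSO. Ndufa4l2, which is no member but encodes a related protein, stood at 1.27 and 2.87 CPM in HSVTK GANC and 28.1 and 29.0 CPM in HSVTK DMSO. It stood at 12.7 and 10.6 CPM in Control GANC and 2.80 and 2.63 CPM in Control DMSO. The sparse tissue forms Cox7b2 and Cox8c held 0.199 to 0.993 and 0.127 to 0.701 CPM over the 8 libraries. Cox7b2 held 0.381 and 0.448 CPM in HSVTK GANC, against 0.467 and 0.993 CPM in HSVTK DMSO, without overlap but also without a call, and the HSVTK groups overlapped in Cox8c.

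Complex II was split within itself. Sdhb, its iron-sulfur subunit, held 115 and 121 CPM in HSVTK GANC, against 143 and 145 CPM in HSVTK DMSO, with 114 and 128 CPM in Control GANC and 119 and 109 CPM in Control DMSO. Sdhc, a membrane anchor, held 108 and 111 CPM in HSVTK GANC, against 129 and 125 CPM in HSVTK DMSO, with 110 and 118 CPM in Control GANC and 112 and 104 CPM in Control DMSO. For both genes the HSVTK DMSO libraries were the highest of the 8. Sdhb changed by -0.29 ± 0.0678 (adjusted p = 0.00166) and Sdhc by -0.22 ± 0.0651 (adjusted p = 0.0123) in edgeR. With limma on log2(FPKM + 1) neither passed (adjusted p = 0.0725 for Sdhb and 0.0828 for Sdhc), and Sdhc also lost its call when HSVTK GANC replicate 1 (adjusted p = 0.0765) or HSVTK DMSO replicate 1 (0.115) or 2 (0.0514) was left out. The flavoprotein gene Sdha held 275 and 284 CPM in HSVTK GANC and 256 and 258 CPM in HSVTK DMSO without passing the test (log2 fold change 0.12, adjusted p = 0.109, edgeR), though it passed with limma (adjusted p = 0.0477). Sdhd, the other anchor, held 182 CPM in both HSVTK GANC libraries, against 180 and 184 CPM in HSVTK DMSO.

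**Figure D5:**
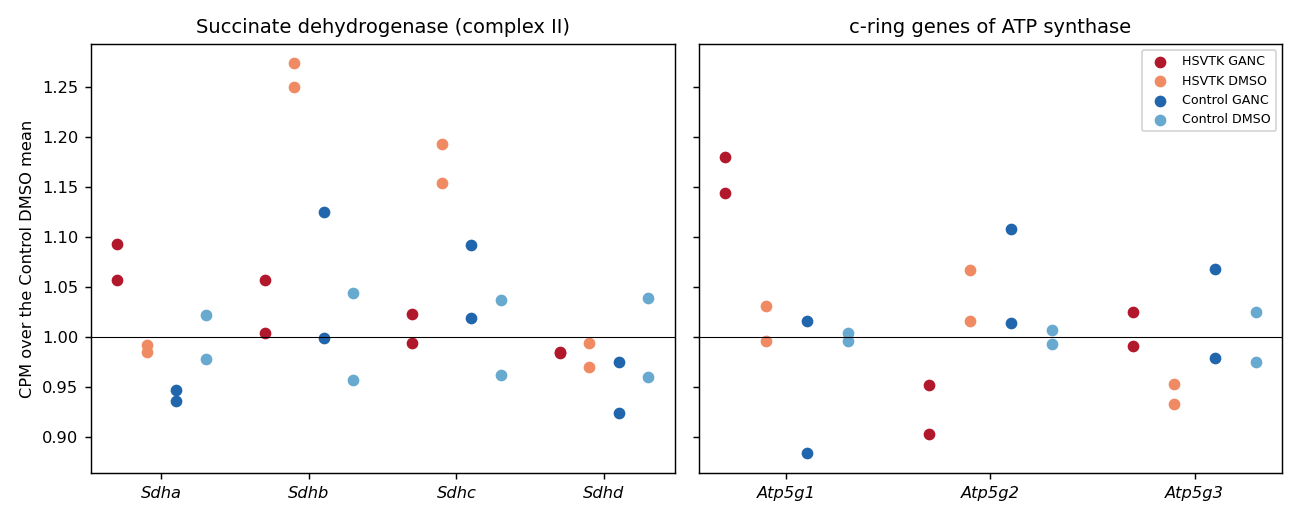
CPM of each library divided by the Control DMSO mean of the same gene, for the 4 genes of complex II (left) and the 3 c-ring genes of ATP synthase (right), coloured by group. HSVTK DMSO stands apart above the other groups in Sdhb and Sdhc, and HSVTK GANC is highest in Atp5g1 and lowest in Atp5g2.

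In complex I, 6 of 37 tested genes fell and 1 rose. Ndufv3, an accessory subunit of the NADH-binding module, held 65.0 and 66.4 CPM in HSVTK GANC, against 84.8 and 88.0 CPM in HSVTK DMSO, with 67.8 and 71.6 CPM in Control GANC and 70.2 and 67.8 CPM in Control DMSO. HSVTK GANC was the lowest of the 4 groups and HSVTK DMSO the highest, and the change was -0.40 ± 0.0695 (edgeR, adjusted p = 7.96e-05). Ndufc2, a membrane-arm subunit, and Ndufa6, an accessory subunit of the matrix arm, changed by -0.23 and -0.22 (adjusted p = 0.0155 and 0.0128, edgeR). Ndufa7 changed by -0.22, Ndufv2, the iron-sulfur partner of the NADH-binding subunit, by -0.22, and Ndufb4 by -0.20. Ndufa11, a membrane-arm subunit, rose, with 60.0 and 60.9 CPM in HSVTK GANC, against 50.6 and 52.9 CPM in HSVTK DMSO (log2 fold change 0.22, adjusted p = 0.0269, edgeR). Of these 7 calls, that of Ndufv3 held in each of the 18 alternatives, and each of the other 6 was lost without HSVTK DMSO replicate 2, with adjusted p of 0.191 for Ndufc2, 0.0712 for Ndufa6, 0.138 for Ndufa7, 0.0739 for Ndufv2, 0.0914 for Ndufb4 and 0.0961 for Ndufa11. Without HSVTK DMSO replicate 1 the adjusted p was 0.0871 for Ndufa6, 0.0671 for Ndufv2, 0.163 for Ndufb4 and 0.247 for Ndufa11. Without HSVTK GANC replicate 1 it was 0.0945 for Ndufv2, 0.0906 for Ndufb4 and 0.0953 for Ndufa11, and without replicate 2 it was 0.0925 for Ndufc2, 0.102 for Ndufa6, 0.0746 for Ndufb4 and 0.133 for Ndufa11. Leaving out Control DMSO replicate 1 or 2 also ended the call of Ndufa11 (0.0522 and 0.0533).

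No gene of complex III was called. Of its 8 members, 0 passed in edgeR, DESeq2 or limma and 2 had an unadjusted p under 0.05 in edgeR, with log2 fold changes between -0.15 and 0.09. Cycs, the mobile carrier between complexes III and IV, held 216 and 231 CPM in HSVTK GANC and 221 and 219 CPM in HSVTK DMSO. Its groups overlap, and the log2 fold change was 0.02.

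In ATP synthase, the 3 genes of the c ring, which turns as protons pass, differed from each other. Atp5g1 held 443 and 457 CPM in HSVTK GANC, against 386 and 399 CPM in HSVTK DMSO, with 342 and 393 CPM in Control GANC and 386 and 389 CPM in Control DMSO. Atp5g2 held 238 and 251 CPM in HSVTK GANC, against 267 and 281 CPM in HSVTK DMSO, with 267 and 292 CPM in Control GANC and 265 and 261 CPM in Control DMSO. HSVTK GANC was thus the highest group for Atp5g1 and the lowest for Atp5g2, with no overlap. The changes were 0.20 ± 0.0594 (adjusted p = 0.0127) and -0.17 ± 0.0590 (adjusted p = 0.0333) in edgeR, and limma called neither (0.0827 and 0.198). Atp5g1 lost its call when HSVTK GANC replicate 2 (adjusted p = 0.11) or either HSVTK DMSO replicate (0.195 and 0.0747) was left out, and Atp5g2 lost it when HSVTK GANC replicate 1 (0.197), HSVTK DMSO replicate 1 (0.0687) or 2 (0.277) or Control DMSO replicate 1 (0.0516) was. Atp5g3 held 291 and 300 CPM in HSVTK GANC and 279 and 274 CPM in HSVTK DMSO, and did not pass (adjusted p = 0.234). Per length, Atp5g1 made up 24.6% of the 3 genes in HSVTK GANC and 21.6% in HSVTK DMSO, and Atp5g2 39.1% and 44.2%. Their sum was 382 ± 11.4 FPKM in HSVTK GANC and 371 ± 5.95 FPKM in HSVTK DMSO (SD, n = 2 each), which overlap between libraries. The other 15 tested genes of ATP synthase were not called.

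The second comparison shows ganciclovir without the kinase label. No member passed in Control GANC against Control DMSO, where 8.08% of all genes tested and 13.7% of those with at least 10 CPM were called. In edgeR 0 of 84 passed and 12 had an unadjusted p under 0.05. DESeq2 called 2, Ndufb4 and Uqcrc1, and limma 0. The median log2 fold change was -0.03 over members and 0.00 over all genes. In 9 members the Control GANC libraries lay above both Control DMSO libraries and in 22 below, against 25% and 24.5% of all genes. Uqcrc1, a subunit of complex III, was nearest to a call, with 208 and 238 CPM in Control GANC and 199 and 186 CPM in Control DMSO, and it passed under 9 alternatives, among them without Control GANC replicate 1 (log2 fold change 0.32, adjusted p = 0.00111). Without that library 4 members were called.

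The responses of the 2 lines to ganciclovir differed in 17 members (20.2% of 84), against 25.6% of all genes tested. At a mean of at least 10 CPM, 18.4% of members and 35.8% of all genes were called. The response was higher in HSVTK than in Control cells for 6 of the 17 and lower for 11. By direction, 11.6% of all genes tested were called higher and 14.0% lower. Cox4i2 differed most (HSVTK minus Control -2.88 ± 0.468, adjusted p = 3.35e-05, edgeR), followed by Cox7a1 (-1.19 ± 0.275, adjusted p = 0.00183), Ndufb2 (1.15 ± 0.332, adjusted p = 0.0105) and Cox6b2 (0.85 ± 0.151, adjusted p = 0.000105). Ndufb2 held 2.88 and 3.47 CPM in HSVTK GANC, against 2.34 and 1.99 CPM in HSVTK DMSO, and 2.41 and 2.42 CPM in Control GANC, against 3.94 and 3.35 CPM in Control DMSO. It moved up in one line and down in the other, and neither change passed by itself. Its call was lost with limma (adjusted p = 0.157), without Control DMSO replicate 1 (0.0531) and without HSVTK GANC replicate 2 (0.059), and it rests on 68 to 128 counts per library. Ndufs1, for the largest core subunit of complex I, also differed by its response (0.29 ± 0.0842, adjusted p = 0.0114, edgeR), with 178 and 179 CPM in HSVTK GANC, 166 and 158 CPM in HSVTK DMSO, 150 and 145 CPM in Control GANC and 163 and 164 CPM in Control DMSO. Its adjusted p was 0.0629 and 0.0829 without Control DMSO replicate 1 and 2 and 0.126 without HSVTK DMSO replicate 2. Over the 76 members with at least 10 CPM, the log2 fold changes of the 2 lines, which share no library, had a Pearson r of -0.21 and a Spearman rho of -0.25. That is a description across genes, which are not independent replicates.

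Without the drug, the 2 lines already differed. Of 84 members, 19 were higher and 5 lower in HSVTK DMSO than in Control DMSO, 28.6% in all, against 33.7% of all genes tested. At a mean of at least 10 CPM, 27.6% of members and 46.8% of all genes were called. The median log2 fold change was 0.05 over members and 0.00 over all genes. In 38 members both HSVTK DMSO libraries lay above both Control DMSO libraries and in 16 below, against 33.7% and 33.5% of all genes tested. Set against all 8 libraries, the HSVTK DMSO pair was highest in 18 members (21.4%), against 15.3% of all genes, and lowest in 5 (5.95%), against 14.4%. The HSVTK GANC pair was highest in 10 members (11.9%), against 11.7% of all genes, and lowest in 2 (2.38%), Atp5g2 and Ndufv3, against 11.3%. The Control GANC pair was highest in 0 members, against 6.44% of all genes, and lowest in 7 (8.33%), against 5.72%. The Control DMSO pair was highest in 5 (5.95%), against 9.55%, and lowest in 7 (8.33%), against 8.82%. This comparison and the first share the HSVTK DMSO libraries, so a high value there enters both.

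Of the called members, Cox4i2 and Cox7a1 of complex IV differed most, higher by 2.05 ± 0.316 (adjusted p = 7.95e-06) and 1.41 ± 0.193 (adjusted p = 1.3e-06) on the log2 scale in edgeR. In the same complex Cox7a2l was higher by 0.30 ± 0.0597 (adjusted p = 0.000214), and Cox6b2 was lower (-0.40 ± 0.109, adjusted p = 0.00538). The call of Cox6b2 was lost without HSVTK DMSO replicate 2 (adjusted p = 0.203) and with limma (0.0964). In complex I, 9 genes were higher and 4 lower. Ndufb4, a membrane-arm subunit, held 79.3 and 77.1 CPM in HSVTK DMSO, against 55.3 and 55.7 CPM in Control DMSO (log2 fold change 0.49 ± 0.0701, adjusted p = 2.23e-06). Ndufb3 was higher by 0.35 and Ndufa7 by 0.33. Ndufb7 was lower, with 73.8 and 67.8 CPM in HSVTK DMSO, against 91.7 and 88.3 CPM in Control DMSO (-0.35 ± 0.0753, adjusted p = 0.000602). Ndufb2 was lower too (-0.76 ± 0.235, adjusted p = 0.0129), though not when Control DMSO replicate 1 (0.117) or HSVTK DMSO replicate 2 (0.112) was left out, and Ndufa11 was lower by a log2 fold change of -0.32.

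In complex III, 3 of 8 genes were higher in HSVTK DMSO. Uqcrc1 held 256 and 263 CPM in HSVTK DMSO, against 199 and 186 CPM in Control DMSO (0.43 ± 0.0677, adjusted p = 1.02e-05, edgeR). Uqcrq held 236 and 243 CPM in HSVTK DMSO, against 197 and 186 CPM in Control DMSO (0.32 ± 0.0657, adjusted p = 0.000297). Neither pair of groups overlaps. Uqcrfs1, the Rieske iron-sulfur protein, was higher by 0.23, which was lost without Control DMSO replicate 2 (adjusted p = 0.144) or HSVTK DMSO replicate 2 (0.103). Cycs was higher by 0.24 ± 0.0582 (adjusted p = 0.0017), Sdhb by 0.33, Sdhc by 0.23 and, in ATP synthase, Atp5pb, the b subunit of the peripheral stalk, by 0.23 ± 0.0528 (adjusted p = 0.00104). The call of Sdhc was lost without Control DMSO replicate 2 (0.142) or HSVTK DMSO replicate 1 (0.0871).

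Under ganciclovir, 12 members were higher and 1 lower in HSVTK GANC than in Control GANC, 15.5% of 84, against 26.1% of all genes tested. At a mean of at least 10 CPM, 17.1% of members and 35% of all genes were called. The median log2 fold change was 0.08 over members and 0.01 over all genes, and in 35 members both HSVTK GANC libraries lay above both Control GANC libraries and in 4 below, against 30.2% and 29.4% of all genes. Cox6b2 was highest among them (0.46 ± 0.105, adjusted p = 0.00161, edgeR), followed by Ndufb5 (0.40 ± 0.0753, adjusted p = 0.000179), a membrane-arm subunit of complex I, which held 68.1 and 71.4 CPM in HSVTK GANC, against 50.7 and 55.0 CPM in Control GANC. Atp5g1 was higher by 0.29 ± 0.0594 (adjusted p = 0.000463), Uqcrq and Ndufs1 by 0.28 each, Cox8a by 0.25 and Sdha by 0.19, and Atp5g2 was lower (-0.19 ± 0.0590, adjusted p = 0.015). The calls of Atp5g1, Ndufb5 and Ndufs1 held in each of the 18 alternatives. Without HSVTK GANC replicate 2 the calls of Cox6b2 (adjusted p = 0.0661), Cox8a (0.0527) and Sdha (0.11) were lost, without Control GANC replicate 1 those of Cox8a (0.187), Uqcrq (0.0994) and Sdha (0.051), without Control GANC replicate 2 that of Atp5g2 (0.13), and without HSVTK GANC replicate 1 that of Atp5g2 as well (0.109). With library sizes unscaled the comparison gave 26 higher and 0 lower. The median of all genes then shifted by 0.051 on the log2 scale, and the members' median stood at 0.13.

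The comparisons of the lines under DMSO and under ganciclovir share no library. Called higher in HSVTK cells in both were Atp5pb, Cycs, Uqcrc1 and Uqcrq, which is 21.1% of the 19 called higher under DMSO and 33.3% of the 12 called higher under ganciclovir. Over all genes tested, the 616 called higher in both are 20.8% of those called higher under DMSO and 30.7% of those under ganciclovir, so the members' shares lie near those of all genes. Under ganciclovir, Atp5pb was higher by 0.21, Cycs by 0.16 and Uqcrc1 by 0.20. Of these, Atp5pb lost its call without HSVTK GANC replicate 2 (adjusted p = 0.0632), and Cycs and Uqcrc1 without several libraries, up to adjusted p of 0.347 and 0.431. Cox6b2 was called in opposite directions, lower under DMSO and higher under ganciclovir. Over the 76 members with at least 10 CPM the log2 fold changes of the 2 comparisons had a Pearson r of 0.11 and a Spearman rho of 0.20.

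Genes that serve the complexes were read from 5 lists, beside the shares of all genes called that are given above. With ganciclovir in HSVTK cells, 7 of 52 tested assembly factors rose and 7 fell. Sdhaf2, which attaches the flavin to Sdha, rose by 0.45 ± 0.0795 (adjusted p = 8.83e-05, edgeR), and Uqcc2, an assembly factor of complex III, and Tmem70, one of ATP synthase, changed by -0.48 and -0.55. Of 14 citric acid cycle genes 5 fell and 0 rose, among them Suclg2, for a subunit of succinyl-CoA ligase, by -0.72 ± 0.0814 (adjusted p = 1.22e-07) and Fh1, fumarate hydratase, by -0.42 ± 0.0743 (adjusted p = 8.38e-05). Fh1 missed the threshold with limma (adjusted p = 0.0602 and 0.0518 with pseudocounts of 1 and 0.1). Of 25 genes of mitochondrial import and cristae 3 rose and 3 fell, with Tomm20, a receptor of the outer membrane, at -0.27. In Control cells with ganciclovir, 0 of the 52 assembly factors rose and 1 fell, 1 citric acid cycle gene rose and 0 fell, and 0 of the 25 import genes passed in either direction.

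Of 19 tested regulators of mitochondrial biogenesis, 2 rose and 6 fell with ganciclovir in HSVTK cells, and 1 rose and 1 fell in Control cells. Esrra, a nuclear receptor that drives respiratory genes, held 15.0 and 15.6 CPM in HSVTK GANC, against 21.2 and 21.6 CPM in HSVTK DMSO, and 20.7 and 24.1 CPM in Control GANC, against 16.8 and 15.9 CPM in Control DMSO. It was lower with the drug in the one line and higher in the other, without overlap, and the difference of the responses was -0.93 ± 0.151 (adjusted p = 3.25e-05, edgeR). Its change in Control cells (0.45 ± 0.107, adjusted p = 0.00827) was lost without Control GANC replicate 2 (0.123) or Control DMSO replicate 2 (0.101) and with limma (0.13). Gabpa, the ETS factor, fell by -0.25 ± 0.0655 in HSVTK cells (adjusted p = 0.00469), a call that limma did not make (0.193), and Yy1 by -0.17 ± 0.0631 (adjusted p = 0.0393), a call lost in 7 alternatives. Nrf1 had a log2 fold change of 0.01 and Tfam, which packages mitochondrial DNA, one of 0.00. Ppargc1a did not pass the count filter and was not tested. Polrmt, the mitochondrial RNA polymerase, rose by 0.44 ± 0.0791 (adjusted p = 9.8e-05) and Twnk, the mitochondrial helicase, by 0.39 ± 0.0752 (adjusted p = 0.000216).

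The subunits not covered by the names, mostly those encoded in mitochondrial DNA, moved unevenly. Of 16 tested, 6 rose and 2 fell with ganciclovir in HSVTK cells, and 0 rose and 1 fell in Control cells. The mitochondrial genes mt-Co2 and mt-Cytb rose by 0.58 ± 0.0796 and 0.44 ± 0.0466 (adjusted p = 2.59e-06 and 4.03e-08, edgeR), while mt-Nd2 changed by -0.38 ± 0.0629 (adjusted p = 3.42e-05), a call that limma did not make (0.119). Mitochondrially encoded genes took 3.56% and 3.45% of the counts in HSVTK GANC, 3.16% and 3.13% in HSVTK DMSO, 3.16% and 2.88% in Control GANC and 3.05% and 3.17% in Control DMSO.

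Between the lines, genes outside the subunits differed as well. Immt, which shapes the cristae, held 142 and 147 CPM in HSVTK DMSO, against 365 and 361 CPM in Control DMSO (-1.33 ± 0.0573, adjusted p = 1.81e-16, edgeR), and 167 and 164 CPM in HSVTK GANC, against 317 and 331 CPM in Control GANC (-0.97 ± 0.0569, adjusted p = 2.16e-13). Suclg1, for the other subunit of succinyl-CoA ligase, held 74.4 and 72.1 CPM in HSVTK DMSO, against 143 and 141 CPM in Control DMSO (-0.96 ± 0.0659, adjusted p = 3.07e-12). Timm10, a chaperone of the intermembrane space, was lower by a log2 fold change of -1.01 under DMSO. Under DMSO, 12 of 52 tested assembly factors were higher and 8 lower, and 2 of 14 citric acid cycle genes higher and 4 lower. Of 19 regulators 6 were higher and 5 lower, of 25 import genes 6 and 4, and of 16 other subunits 2 and 4. Over all genes tested, 16.4% were called higher and 17.3% lower. Under ganciclovir the counts were 4 higher and 4 lower, 0 and 4, 2 and 3, 3 and 3, and 4 and 2 for the same lists. There, 11.1% of all genes tested were called higher and 14.9% lower.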

How the data were processed

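RNA of 8 libraries was extracted with phenol and chloroform and prepared with a VAHTS Universal V6 kit, per the labels. The authors deposited a table of unnormalized whole-number counts for 57010 genes. They also deposited FPKM values, which equal the counts divided by the listed exon length and by the library's counts in 456080 of 456080 values (within 1e-05). DESeq2 1.40.2, featureCounts 2.0.1, HISAT2 2.1.0, fastp 0.23.2 and the build GRCm39 are listed in the submitters' processing notes, without roles. Strand setting and annotation release do not appear in the sources used here, so reads of a gene and of an antisense partner could not be told apart.

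From the counts, edgeR 4.0.16 (R 4.3.3) gave TMM-scaled CPM and quasi-likelihood F tests in 1 fit of all 8 libraries with a mean per group and 4 residual degrees of freedom, after the filter of filterByExpr. Adjusted p-values are Benjamini-Hochberg values over the 17976 genes tested. The 5 comparisons are ganciclovir against DMSO in each line, the difference of these responses, and the lines under each treatment. Each SE is the fold change divided by the root of F. The biological coefficient of variation was 6.31%. Depth was 29704460 to 34184475 counts per library.

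Alternatives were unscaled library sizes, DESeq2 size factors and its Wald test (DESeq2 1.42.0), no filter or a mean of 1 CPM, leaving out mitochondrially encoded genes, limma 3.58.1 on log2 of FPKM plus 1 or 0.1, a replicate block, a fit of only the libraries compared, and leaving out each library. The edgeR fit was tested on simulated counts for HSVTK GANC against HSVTK DMSO. Of log2 changes of -0.5 and 0.5, 52% and 70% were called in the right direction, and of -1 and 1, 88% and 98%. A gene that was not called may thus still have changed by a small amount. Between libraries of the same replicate number, deviations from the group means had correlations of -0.0319 to 0.0145 across genes. These show no strong shared replicate effect, but not whether such libraries were prepared together.

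The members and the gene lists were chosen with earlier results of these data known. Given by rule were Cycs, Ndufa4, Cox7a2l, the Sdh genes, the complex IV tissue forms beside their common forms and the c-ring genes, called Atp5g1 to Atp5g3 in the files, in each complex and comparison up to 3 called members per direction with the largest fold change and a mean of at least 1 CPM, and the members of highest and lowest FPKM. Of the other lists, up to 2 called genes per direction and comparison with the lowest adjusted p were eligible, and Nrf1, Gabpa, Yy1, Ppargc1a, Esrra and Tfam always. Other names were chosen after their values were seen. Promoters came from RefSeq for GRCm38.p6, which is not the build in the notes, and exon overlaps from GENCODE vM21. No protein sequences were used here.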

Additional observations from a re-analysis of the deposited data

Results flagged for a closer look

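In 17 members the response to ganciclovir differed between HSVTK and Control cells by the test of the difference itself (edgeR, adjusted over 17976 genes). On the log2 scale, HSVTK minus Control, complex IV gave Cox4i2 at -2.88, Cox7a1 at -1.19, Cox7a2l at -0.25 and Cox6b2 at 0.85. Complex I gave Ndufb2 at 1.15, Ndufa11 at 0.4, Ndufb5 at 0.3 and Ndufs1 at 0.29, and on the other side Ndufb4 and Ndufv3 at -0.41 each, Ndufa6 at -0.38, Ndufc2 at -0.3 and Ndufa7 at -0.28. Complex II gave Sdhb at -0.38 and Sdhc at -0.3. The c-ring genes gave Atp5g1 at 0.27 and Atp5g2 at -0.25. The calls of Cox4i2, Cox6b2, Cox7a1, Ndufa6, Ndufb4 and Ndufv3 held in each of 17 alternatives, and the other 11 were lost in at least 1 of them.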

How the results depend on the processing

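Called members for ganciclovir in HSVTK cells numbered 15, but 9 and 8 with limma on log2 of FPKM plus 1 and plus 0.1, and 6 to 18 with a library left out (8 without HSVTK DMSO replicate 1 and 6 without replicate 2). With unscaled library sizes 6 were higher and 10 lower, against 3 and 12 with scaling. For ganciclovir in Control cells the count was 0, but 1 with unscaled library sizes, with DESeq2 size factors, without mitochondrially encoded genes and with no filter, 2 at a mean of at least 1 CPM and with the DESeq2 Wald test, and 0 to 4 with a library left out (4 without Control GANC replicate 1 and 1 without Control GANC replicate 2 or either HSVTK GANC replicate). For the difference of responses the count was 17, but 10 and 9 with limma and 8 to 20 with a library left out (10 without Control DMSO replicate 1 or HSVTK DMSO replicate 2, 8 without Control DMSO replicate 2). For the lines under DMSO it was 24, with 16 to 27 after leaving out a library. Under ganciclovir it was 13, but 26 with unscaled library sizes, 6 with only the libraries of the comparison, and 6 to 19 with a library left out (6 without HSVTK GANC replicate 2). A replicate block gave 15, 0, 17, 24 and 12 called members in the 5 comparisons. The median log2 fold change of members moved with a library left out from -0.048 to 0.009, from -0.084 to 0.036, from -0.074 to 0.071, from 0.033 to 0.084 and from 0.01 to 0.138. The log2 ratio of summed FPKM between HSVTK GANC and HSVTK DMSO was -0.02, 0.044, 0.054 and 0.006 in complexes II, III and IV and ATP synthase. The median level of the members, as log2(FPKM + 1), differed between these groups by -0.051, -0.013, -0.14 and 0.056. That is a shift of the middle level and not of the typical member. The median log2 fold change of the members in edgeR was -0.107, 0.009, -0.012 and -0.024. Of 69 member calls, 28 held under every alternative run and 41 were lost under at least 1, and no member call was reversed. The log2 fold change of mt-Nd4l between HSVTK GANC and Control GANC was -1.13 and ran from -1.92 to 0.773 with a library left out, where 0.773 is the value without Control GANC replicate 1. The causes of these shifts were not tested. Depth limits Cox4i2 and Ndufb2, which rest on 20 to 162 and 68 to 128 counts per library.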

Other observations

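The 6 tested members on chromosome 17 were all called between HSVTK DMSO and Control DMSO, 5 higher and 1 lower, where 48.8% of the 420 genes of that chromosome with a mean of at least 10 CPM were called and their median log2 fold change was -0.003. Under ganciclovir 0 of the 6 were called between the lines in edgeR, where 33.1% of the 420 genes were. Among the chromosomes that hold members, the share of genes called between the lines was highest on chromosome 6, at 65.0% of 363 genes under DMSO and 54.3% under ganciclovir, with 2 and 1 of its 5 members called. Chromosome 17 was singled out after its values were seen.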
